A study of Macaca fascicularis with 2 samples.

Results

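A population of collagen-rich ovarian cells with RNA of WFDC1, SPON2 and C7, here called WFDC1 stromal cells, was described in fetal ovaries of the monkey Macaca fascicularis. A cell was a member when COL1A1, COL1A2 and COL3A1 together made up at least 50 of every 10000 of its unique molecular identifiers (UMIs, each standing for 1 captured RNA molecule), when it had at least 4 UMIs from at least 2 of WFDC1, SPON2, C7, CYGB and GBP1, and when these outnumbered its UMIs of POSTN, OGN, LUM, ASPN and RSPO3. Of 20967 cells, 1608 were members (7.67%, exact 95% binomial interval 7.31–8.04). The mirror rule, with the gene sets exchanged, gave 1773 POSTN stromal cells, which served as the comparison.

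RNA was counted in single cells of whole ovaries from 2 female fetuses, 1 at embryonic day 84 (E84) and 1 at E116, with no treatment named in the labels. Both ovaries of a fetus were pooled, dissociated with enzymes and made into 1 droplet library of transcript 3′ ends. The table held 148824177 UMIs of 18446 genes, with a median of 3756 UMIs per cell. Of its barcodes, 10621 end in 1 and 10346 in 2, and no source used here ties an ending to a stage. Cells were hence handled as 1 pooled sample, with the endings as unlabelled batches and no result by stage. Cells are not replicates, so no test was made. Levels are a gene's share of a group's summed UMIs, as CPM (counts scaled to a common total), ratios have 10 CPM added to both groups, and intervals are exact, at 95%, and cover counting error only.

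Stromal cells of the fetal ovary lie between the germ cell nests, lay down the collagen matrix, and include the precursors of the steroid-making theca cells. Theca precursors respond to Hedgehog ligands from granulosa cells: ligand binding to the receptor PTCH1 releases the signalling protein SMO and activates GLI transcription factors, and PTCH1, GLI1 and HHIP are themselves targets that report the activity of the pathway. Among the genes of the rule, WFDC1 encodes a secreted protein of the protease inhibitor-like WAP family, SPON2 the matrix protein spondin 2, C7 a component of the terminal complement complex, CYGB the globin cytoglobin and GBP1 an interferon-induced GTPase.

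Membership was very uneven between the barcode endings. Members made up 145 of the cells ending in 1 (1.37%, 1.15–1.60) and 1463 of those ending in 2 (14.1%, 13.5–14.8), so that 91.0% of them carried the ending 2. POSTN stromal cells ran the other way, with 1416 cells ending in 1 and 357 ending in 2. Cells past the collagen limit were nearly as frequent in both, at 2314 and 2477. What an ending stands for is not stated, so a difference of stage, animal, library or preparation that goes with it cannot be told apart from it. Counts of genes are therefore given within the endings as well.

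The choice of members set the levels of the genes it used, which are given as a description. The steps of the rule left 4791 cells at the collagen limit, 2533 with enough UMIs of the WFDC1 set, 2286 with these from at least 2 genes, and 1608 in which they outnumbered the POSTN set. A member had a median of 12.5 UMIs of the WFDC1 set (4 to 363) and 3 of the POSTN set (0 to 63), and 171 members had none of the latter. At the edges of the rule, 96 members had exactly 4 UMIs of the WFDC1 set and 90 cells failed with 3. In 69 members the WFDC1 set led by 1 UMI, and 63 cells failed with equal numbers. The collagen limit passed 106 members at 50 to under 60 per 10000, while 108 cells that otherwise met the limits on the WFDC1 set stood at 40 to under 50.

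The sets were not exclusive. Of the collagen-rich cells, 1281 reached the UMI and gene limits of both, and 626 of these were members. Among 3889 collagen-rich cells with at least 4 UMIs of the sets together, 13.4% had between 40 and 60% of them from the WFDC1 set. Cells with over 80% from the WFDC1 set were 1.33% of those ending in 1 and 37.4% of those ending in 2, and cells under 20% were 43.4% and 5.94%. The cells thus spread over the whole range without a gap, piled up at opposite ends in the 2 sets of barcodes.

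**Figure D1:**
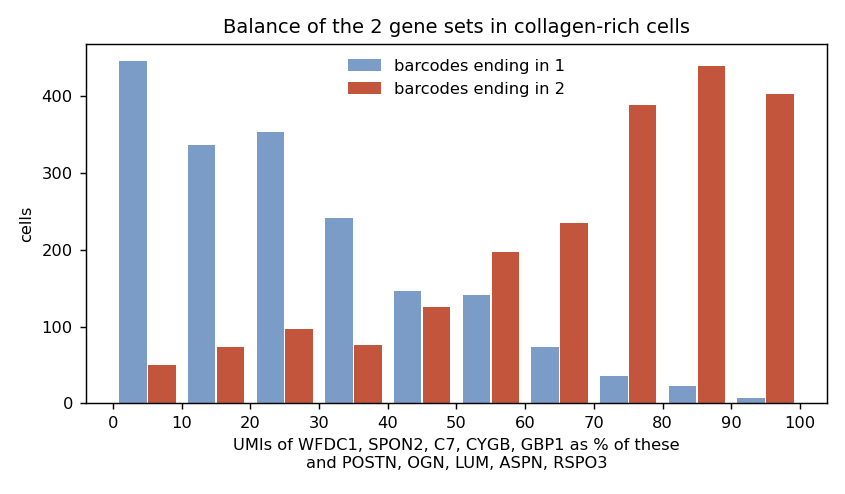
The share of a cell's UMIs that came from WFDC1, SPON2, C7, CYGB and GBP1, out of these and POSTN, OGN, LUM, ASPN and RSPO3 (x axis, %), against the number of cells (y axis), for collagen-rich cells with at least 4 such UMIs; blue bars are the 1803 cells with barcodes ending in 1, red bars the 2086 ending in 2. The blue bars are highest at the low end and the red bars at the high end, with 13.4% of all cells between 40 and 60%.

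C7 was the gene of the set found in the most members. It had a UMI in 95.3% of members and was the leading gene in 725 (45.1%). SPON2 led in 344 members, GBP1 in 266, WFDC1 in 116 and CYGB in 16, with ties in 141. WFDC1, the first name of the population, had a UMI in only 39.6% of members, below SPON2 (71.5%), GBP1 (64.0%) and CYGB (965 members). All 5 genes were found in 210 members and only 2 of them in 417. With each cell thinned to 2000 UMIs, which left out 135 members, WFDC1 was found in 21.4% of members (19.3–23.6), 6.93% of POSTN stromal cells, 0.626% of granulosa marker cells and 0.372% of germ cell marker cells, the last 2 being classes that should lack it. C7 was found in 76.4%, 56.2%, 1.52% and 1.12% of the same groups.

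The levels of the set followed the rule in both endings, but GBP1 was tied to the ending. WFDC1 stood at 98.0 CPM (77.4–123) in the 145 members ending in 1 and 192 CPM (184–200) in the others, against 31.7 and 72.9 CPM in POSTN stromal cells. SPON2 stood at 367 and 658 CPM in members and 142 and 181 CPM in POSTN stromal cells. C7 reached 1103 and 962 CPM in members, while POSTN stromal cells still had 572 and 396 CPM. The widest gap between endings was in GBP1, at 82.8 CPM (63.9–105) in the members with the ending 1 and 612 CPM (598–626) in those with the ending 2. Of the 266 members led by GBP1, 262 ended in 2, and without GBP1 in the set 1385 cells met the rule.

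Genes outside the rule were at levels of stromal cells. TCF21, a transcription factor of stromal progenitors, stood at 582 CPM in members, against 31.3 CPM in granulosa and 4.79 CPM in germ cell marker cells. NR2F2, an orphan nuclear receptor of interstitial and theca precursors, stood at 777, 61.4 and 29.4 CPM. PDGFRA, a receptor for platelet-derived growth factor on stromal cells, stood at 61.2, 1.33 and 2.26 CPM. Decorin (DCN), a small collagen-binding proteoglycan, stood at 2540 CPM in members, 819 CPM in granulosa and 112 CPM in germ cell marker cells. All of these genes were higher in the members than in either other class.

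Markers of most other classes were low in the members, except those of pericytes and smooth muscle. The summed level of 11 germ cell markers was 78.3 CPM, against 2862 CPM in the cells chosen by them. Granulosa markers summed to 181 CPM against 1769 CPM, surface epithelium markers to 103 against 2936 CPM, endothelial markers to 140 against 4374 CPM and macrophage and lymphocyte markers to 23.6 against 7847 CPM. FOXL2, the defining granulosa factor, and CLDN5, CD163 and CD3E were each under 1 CPM. Pericyte and smooth muscle markers summed to 1150 CPM in members (1995 CPM in the ending 1 and 1094 CPM in the ending 2), and 63.4% of members had at least 3 such UMIs. These markers summed to 1333 CPM in POSTN stromal cells and 2302 CPM in the cells chosen by them. The cells so chosen could lie past the collagen limit and had granulosa markers at 884 CPM, so they are a mixed reference. Haemoglobin and other erythroid markers summed to 6583 CPM in members with the ending 1 and 175 CPM in members with the ending 2, against 2438 and 158 CPM in POSTN stromal cells.

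Members had more UMIs than POSTN stromal cells, with medians of 5439.5 and 3416, and 385 members (23.9%) had over 3000 detected genes. Scrublet gave 0 automatic doublet calls in either ending, which does not show that the cells are free of doublets. The 8% of cells with the highest doublet scores in each ending held 12 members (8.28%) in the ending 1 and 66 (4.51%) in the ending 2. The endings shared 27 barcode sequences, carried by 6 members.

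Against POSTN stromal cells, more genes were counted as lower in the members than as higher. A gene was counted as different at a ratio of at least 2 with at least 20 CPM in the higher group, the rule's genes left out. Over all cells, 74 of 6519 genes were higher in members (1.14%) and 94 were lower (1.44%). Within the ending 1, 9 genes were higher (0.138% of 6510) and 24 lower (0.369%), and within the ending 2, 20 were higher (0.313% of 6386) and 73 lower (1.14%). Of 5900 genes tested in both endings, 1 was higher in both (0.0169%) and 15 were lower in both (0.254%). No gene was counted in opposite directions in the 2 endings. The pooled counts mix the groups' unequal endings with their difference: 47 of the 74 higher and 80 of the 94 lower genes lay on the same side in both endings. How many of all tested genes did so was not computed, so these 2 counts have no background.

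LFNG was the gene higher in both endings. It encodes lunatic fringe, a glycosyltransferase that modifies NOTCH receptors and changes their response to ligands. It stood at 53.5 CPM (38.5–72.3) in members and 18.4 CPM (15.3–21.9) in POSTN stromal cells among barcodes ending in 1, and at 74.0 CPM (69.2–79.0) and 23.2 CPM (17.2–30.7) among those ending in 2. The intervals did not overlap in either ending, and the log2 ratios were 1.16 and 1.34. FRZB, a secreted antagonist of WNT ligands, was close to the limit in both, at 127 against 57.5 CPM and at 120 against 60.6 CPM, with a log2 ratio of 1.02 in the ending 1 and 0.88, just under it, in the ending 2.

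The genes lower in both endings included secreted proteins of the matrix and of growth factor pathways. MGP, the matrix Gla protein that inhibits calcification, stood at 82.8 CPM (63.9–105) in members and 309 CPM (296–323) in POSTN stromal cells ending in 1, and at 42.2 CPM (38.6–46.0) and 601 CPM (568–635) in those ending in 2. Fibulin 1 (FBLN1), a matrix glycoprotein, stood at 299 against 613 CPM and at 161 against 756 CPM. SFRP1, a secreted WNT-binding protein, stood at 614 against 1244 CPM and at 234 against 943 CPM. Members thus kept a part of these RNAs, and the gap was wider among barcodes ending in 2.

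IGFBP3, FGF7 and SLIT3 were lower in both endings as well. IGFBP3, a carrier of insulin-like growth factors, stood at 129 against 378 CPM in the ending 1 and at 107 against 325 CPM in the ending 2. FGF7, a fibroblast growth factor that acts on epithelia, stood at 10.2 against 38.0 CPM and at 15.6 against 57.8 CPM. SLIT3, a ligand of ROBO receptors, stood at 15.3 against 97.9 CPM and at 19.4 against 86.7 CPM. For these 3 genes the size of the gap was alike in the endings, with log2 ratios of −1.49 and −1.52, −1.25 and −1.40, and −2.09 and −1.72. MOXD1, a monooxygenase-like protein, had the lowest log2 ratio of the 15 in the ending 1, −2.41, from 4 UMIs in the members.

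The remaining genes lower in both endings were ADAMTSL4, CHODL, PAGE4, PLAC9, PAMR1, CST3, MSLN and TUBB3. Of these, CST3, the secreted protease inhibitor cystatin C, had the highest levels, at 317 against 658 CPM and at 511 against 1476 CPM. MSLN, a marker of the surface epithelium, stood at 8.91 against 36.5 CPM and at 21.4 against 85.2 CPM.

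**Figure D2:**
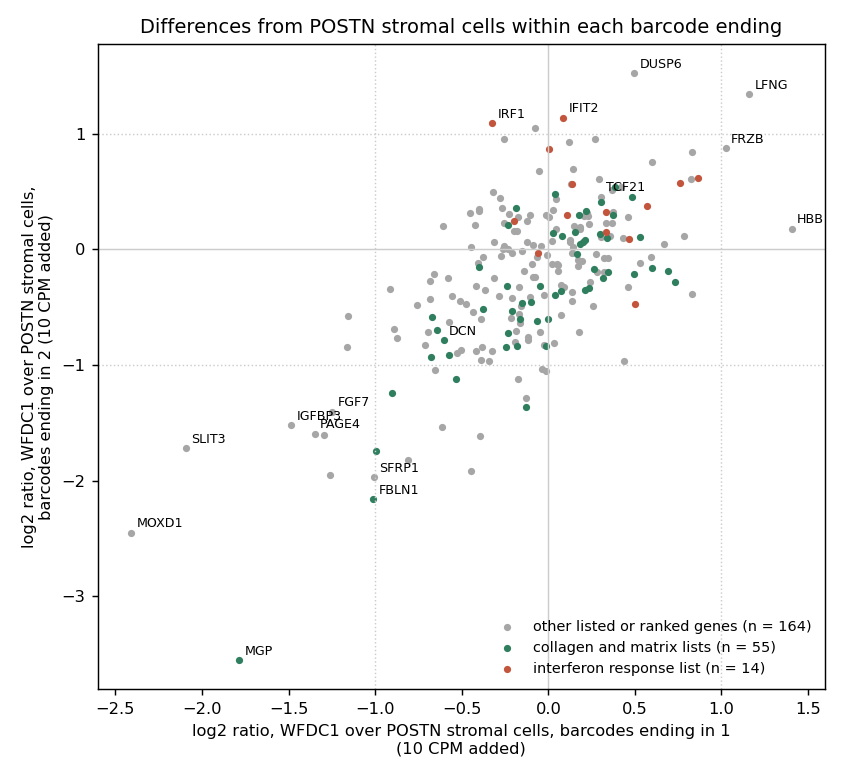
Log2 ratios of WFDC1 over POSTN stromal cells (10 CPM added) among barcodes ending in 1 (x axis) and in 2 (y axis), for the listed or ranked genes with at least 20 CPM in the higher group in both endings; green points are genes of the collagen and matrix lists, red points interferon-response genes, and dotted lines mark a 2-fold difference. LFNG lies past the lines in the upper right, MGP, MOXD1, SLIT3, SFRP1, FBLN1 and IGFBP3 in the lower left, and the 14 red points lie above −1 and below 1 on the x axis.

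Some genes were higher in a single ending. EDN3, a ligand of endothelin receptors, stood at 64.7 CPM (60.3–69.5) in members ending in 2, against 5.21 CPM (2.60–9.32) in POSTN stromal cells of that ending. In the ending 1 it was near the floor in both groups, at 6.37 CPM from 5 UMIs and 1.01 CPM from 7 UMIs. DUSP6, a phosphatase that is induced by and acts on ERK kinases, stood at 156 against 47.8 CPM in the ending 2 and at 75.1 against 50.4 CPM in the ending 1. DHRS3, a retinaldehyde reductase, stood at 254 against 127 CPM and at 129 against 105 CPM, and was counted as higher over all cells only. Among members ending in 1, HBB reached 6294 CPM against 2371 CPM in POSTN stromal cells, beside the erythroid sums above, and the part of free haemoglobin RNA in this was not tested.

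Gene lists gave the same picture of few gains. Of 11 collagen genes tested, 0 were higher and 2 were lower in members over all cells, COL14A1 (225 against 741 CPM) and COL5A1 (23.0 against 56.2 CPM), and neither passed within an ending. COL1A1, which the rule used, stood at 10107 CPM in members and 12620 CPM in POSTN stromal cells. Of 27 matrix glycoproteins and proteoglycans, 0 were higher and 6 lower (MGP, FBLN1, CCDC80, MFAP4, VCAN and FBLN2), with a median log2 ratio of −0.15, beside 0.01 over all genes tested. In the ending 1, 2 of 27 were lower, MGP and FBLN1, and in the ending 2, 6 of 28, with MFAP5 in place of VCAN. Of 17 matrix proteases and inhibitors, 0 were higher and 2 lower, PLAT (tissue plasminogen activator) and ADAMTS5 (an aggrecan-cleaving protease). PLAT passed in the ending 2 and neither passed in the ending 1. TIMP1, an inhibitor of matrix metalloproteases, was at 1776 against 1097 CPM in the ending 1 and at 1836 against 2089 CPM in the ending 2.

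Transcription factors of stromal and theca progenitors leaned lower in members, mostly by less than 2-fold. Their median log2 ratio was −0.37 over all cells, −0.18 in the ending 1 and −0.30 in the ending 2. Over all genes tested the medians were 0.01, −0.0005 and 0.03. Of 22 tested, 0 were higher and 1 was lower, NR2F1, another orphan nuclear receptor (132 against 280 CPM over all cells). This call was lost within both endings, at 225 against 309 CPM and at 126 against 187.5 CPM. NR2F2 stood at 777 CPM in members and 753 CPM in POSTN stromal cells. TCF21 was at 413 CPM (369–460) against 332 CPM (319–346) in the ending 1 and at 594 CPM (580–608) against 431 CPM (403–460) in the ending 2, a log2 ratio of 0.30 and 0.45, under the limit in both. WT1, a transcription factor of gonadal precursors, stood at 68.4 and 67.6 CPM, and granulosa marker cells had 254 CPM.

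Steroid-making was hardly represented. Of 10 genes of the Leydig and theca list that could be tested, 1 was higher over all cells, VCAM1, an adhesion molecule, at 36.3 against 13.1 CPM, and it did not pass within an ending (38.3 against 38.8 CPM in the ending 2). CYP17A1, the enzyme at the entry to androgen synthesis, stood at 0 and 11.4 CPM in members ending in 1 and 2, and INSL3, a peptide hormone of Leydig and theca cells, at 2.55 and 12.2 CPM. DLK1, a membrane protein of progenitor cells, was at 539 against 527 CPM in the ending 1 and at 598 CPM (584–612) against 1054 CPM (1011–1099) in the ending 2. CXCL12, a chemokine of stromal cells, was at 399.8 against 435 CPM and at 379 against 647 CPM. NR5A1, the steroidogenic factor 1, was at 29.3 against 19.4 CPM and at 34.0 against 20.4 CPM, with log2 ratios of 0.42 and 0.54.

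Genes of the signalling lists that were counted as different were mostly lower in members. Over all genes tested, 1.44% were lower over all cells, 0.369% in the ending 1 and 1.14% in the ending 2. Those higher were 1.14%, 0.138% and 0.313%. In the WNT list, 0 of 14 genes were higher and 2 were lower over all cells, SFRP1 and SFRP2, another secreted WNT-binding protein. Within the ending 1, FRZB was higher and SFRP1 lower, while SFRP2 was at 54.8 against 78.4 CPM, a call lost there. Within the ending 2, 4 of 14 were lower and 0 higher. They were SFRP1, SFRP2 (5.43 against 48.3 CPM), the WNT inhibitor WIF1 (20.7 against 97.5 CPM) and the ligand WNT2B (4.01 against 21.3 CPM).

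Of 16 genes of IGF, FGF and PDGF pathways, 0 were higher and 2 lower, IGFBP3 and FGF7. Both passed in both endings, beside 0.254% of all genes tested in both. IGFBP5 and IGF2, the most abundant of that list, stood at 2076 against 2438 CPM and at 1846 against 1912 CPM in the ending 1, and at 3063 against 3061 CPM and 1879 against 3098 CPM in the ending 2. Of 23 BMP and TGF beta genes 0 were higher and 1 was lower over all cells, LTBP1, a protein that holds latent TGF beta in the matrix. It passed in the ending 2 (122 against 263 CPM) and not in the ending 1 (290.3 against 294 CPM). ID4, an inhibitor of basic helix-loop-helix factors, passed as lower in the ending 1 only and INHBB, an activin subunit, in the ending 2 only.

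In the NOTCH list 0 of 6 were counted as different over all cells, and 0 in the ending 1. The ligand JAG1 was lower in the ending 2, at 40.4 against 99.4 CPM, and the receptor NOTCH2 stood at 194 against 194 CPM in the ending 1 and 111 against 116 CPM in the ending 2.

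Of 6 Hedgehog genes tested, 0 were higher and 1 was lower over all cells, the coreceptor CDON (32.8 against 85.9 CPM). The call was lost within both endings, where CDON was at 61.1 against 95.8 CPM and at 31.0 against 53.5 CPM. PTCH1 stood at 59.8 against 68.8 CPM in the ending 1 and 86.7 against 69.6 CPM in the ending 2, and GLI1 at 31.8 against 34.5 CPM and 24.2 against 30.3 CPM. Neither differed by 2-fold between the populations, although both varied within them, as described below. In the lists of steroid and peptide hormone receptors (6 tested), complement (5), immediate early and heat shock genes (18) and cell cycle (13), 0 genes were counted as higher or lower over all cells. Within the endings the exceptions were C3, lower in the ending 2 (2.84 against 37.9 CPM), and EGR2, higher in the ending 2 (281 against 130.2 CPM).

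Interferon-response genes were the only list with many pooled gains. Of 22 tested, 19 were higher in members over all cells and 0 were lower, with a median log2 ratio of 1.48. Within the ending 1, 0 of 14 passed, with a median of 0.23, and within the ending 2, 2 of 23 passed, with a median of 0.38. The 2 were IFIT2, which binds viral RNA, at 472 CPM (460–485) against 209 CPM (190–230), and IRF1, a transcription factor of interferon signalling, at 1308 CPM (1288–1329) against 609 CPM (577–644). IRF1 ran the other way in the ending 1, at 387 CPM (345–433) in members and 487 CPM (471–504) in POSTN stromal cells. GBP1 of the rule is itself an interferon-induced gene, and with it left out of the rule 0 of 24 passed in the ending 2, with a median of 0.11. The list did not hold CXCL10, ICAM1, IRF8, CD74 and HLA-DRA, immune genes also counted as higher in the ending 2. CXCL10 stood there at 192 against 84.8 CPM and ICAM1 at 222 against 70.1 CPM. Over all cells, the log2 ratio of CXCL10 was 2.41 with GBP1 in the rule and 0.58 without it.

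The summed level of the list followed the ending in every class examined. In members it was 1624 CPM (1536–1715) among barcodes ending in 1 and 10938 CPM (10879–10998) among those ending in 2, a ratio of 6.74. It was 1389 and 7439 CPM in POSTN stromal cells, 1500 and 13437 CPM in endothelial, 3430 and 6910 CPM in granulosa and 615 and 1422 CPM in germ cell marker cells. IFI27, an interferon-induced mitochondrial protein, made up much of the members' sum, at 641 and 4786 CPM. The level in members ending in 2 was above that of POSTN stromal cells and below that of endothelial marker cells of the same ending. Because GBP1 helped to choose the members, part of the gap to POSTN stromal cells was set by the rule. With GBP1 left out of the rule, the sums in the ending 2 were 10754 CPM in members and 8785 CPM in POSTN stromal cells. Their ratio was 1.22, beside 1.47 with GBP1 in the rule.

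**Figure D3:**
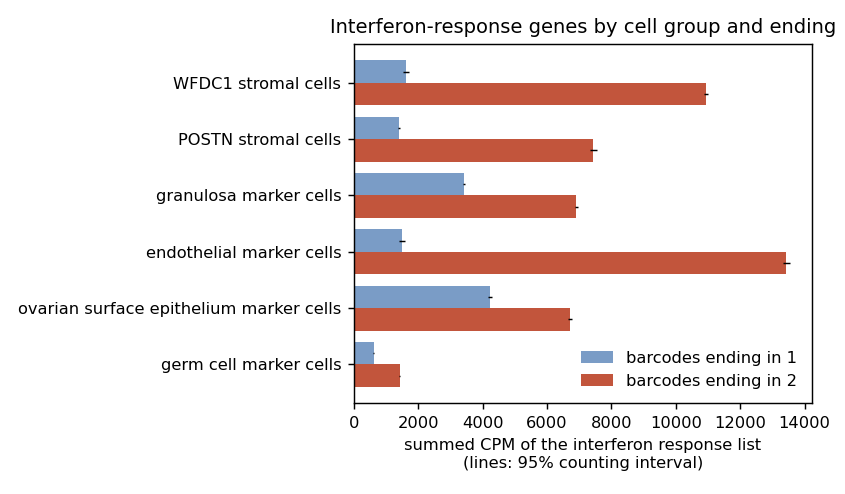
Summed CPM of the interferon-response list (x axis) in 6 groups of cells (y axis), for barcodes ending in 1 (blue) and in 2 (red), with exact 95% Poisson intervals as lines. The red bar is longer in every group, with a ratio of 6.74 in WFDC1 stromal cells, 5.35 in POSTN stromal cells, 8.96 in endothelial marker cells and 1.59 in surface epithelium marker cells.

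Members lay together among the collagen-rich cells in genes the rule did not use, but mostly by their ending. Of a member's 20 nearest neighbours, computed on 2000 variable genes without the rule's genes, 70.4% on average were members, which made up 33.6% of the cells, and 97.6% had the same barcode ending. In 1228 members (76.4%) most neighbours were members. Within the ending 2, 77.4% of a member's neighbours were members, which were 59.1% of those cells, and POSTN stromal cells had 44.0% members and 39.9% POSTN stromal cells around them, the latter being 14.4% of the cells. Within the ending 1, 10.4% of a member's neighbours were members, which were 6.27% of those cells, and 66.9% were POSTN stromal cells. No member of the ending 1 had a majority of members around it.

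Grouping the members alone by the same genes gave 9 subclusters, whose leading genes are given as a description. Subcluster 1 held 126 of the 145 members ending in 1 and was led by HBB, TNNT1, SLC39A4 and ALCAM. The other subclusters were mostly or wholly of barcodes ending in 2. Subcluster 2 (93 cells) was led by TOP2A, MKI67, UBE2C and CENPF, genes of dividing cells, with TOP2A at 865 CPM against 29.4 CPM in other members. It held members of both endings, 13 and 80.

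Small subclusters carried genes of other classes. Subcluster 3 (58 cells) was led by PTGDS, MSLN, KRT19 and LHX2, with 2 surface epithelium markers among its 10 leading genes, a median of 12098.5 UMIs, and 42 of its cells among those with the highest doublet scores. Subcluster 5 (15 cells) was led by TINAGL1, COX4I2, RGS5, NDUFA4L2 and KCNJ8, with 5 pericyte markers among the 10, and none of its cells was among those scores. Without the cells of both, 1535 members remained, with 74 genes higher and 109 lower than in POSTN stromal cells.

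The larger subclusters differed in which gene of the rule they carried. Subcluster 9, the largest at 418 cells, had the most WFDC1, at 404 CPM against 113 CPM in other members, with 257 CPM of SPON2. It was led besides by PLA2G1B, a secreted phospholipase, PTCH1 (161 against 59.4 CPM), the water and glycerol channel AQP3 and TPD52L1. Subclusters 6 (178 cells), 7 (247) and 8 (166) had the most SPON2, at 1456, 1167 and 2143 CPM, and only 39.0, 84.0 and 62.1 CPM of WFDC1. EDN3, SEMA3D and MKX led in subcluster 6, NPW, TGFBI and SEMA3D in subcluster 7, and LAMA2 and FAT4 in subcluster 8, whose cells were shallow, with a median of 1846.5 UMIs and 13.7% mitochondrial UMIs.

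Subcluster 4 (297 cells) had the most GBP1, 1117 CPM, and was led by CXCL10, APOL2, IRF1 and ICAM1. Its immediate early and heat shock genes summed to 36260 CPM. The only subcluster above that was 6, at 37041 CPM, and the range over the others was 4684 to 20805 CPM. The part of cell dissociation in these sums was not tested.

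**Figure D4:**
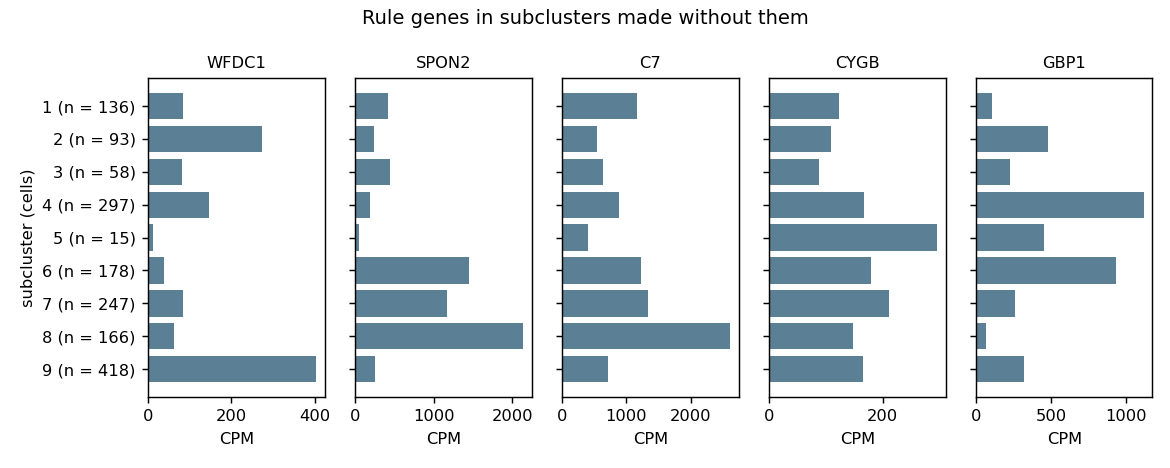
CPM of WFDC1, SPON2, C7, CYGB and GBP1 (x axes, 1 panel a gene, each with its own scale) in the 9 subclusters of the members (y axis, with the number of cells), which were made without these genes. WFDC1 is highest in subcluster 9, SPON2 and C7 in subcluster 8, CYGB in the 15 cells of subcluster 5 and GBP1 in subcluster 4. The cells of subcluster 8 are shallow, so the rule's limit of 4 UMIs asks for a higher CPM of the set there.

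WFDC1 and SPON2 tended to lie in different members. With members ending in 2 thinned to 2000 UMIs, 12.5% of those with a SPON2 UMI had a WFDC1 UMI (10.1–15.3), against 32.4% of those without (28.9–36.1). The rule asks for a sum over the set, which by its construction lowers the joint presence of the set's genes in members. Over all collagen-rich cells of that ending, chosen without the set, the shares were 11.5% (9.36–13.9) and 23.6% (21.3–26.1). Over those ending in 1 they were 4.82% (2.97–7.35) and 7.13% (5.76–8.70), with overlapping intervals.

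The members ending in 2 were therefore divided by these genes, a choice made after the subclusters had been seen. In 348 members WFDC1 had more UMIs than SPON2, in 868 fewer, and in 247 as many. Their median depths were 7040 UMIs for the cells with more WFDC1 and 5485 for those with more SPON2. Of 6330 genes tested, 24 were at least 2-fold higher with WFDC1 (0.379%) and 35 with SPON2 (0.553%). The same division was then made in 4 other sets of collagen-rich cells: members ending in 1 (20 against 102 cells), POSTN stromal cells ending in 2 (67 against 132) and in 1 (96 against 501), and other collagen-rich cells ending in 2 (65 against 168).

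Targets of the Hedgehog pathway went with WFDC1. PTCH1, the receptor and feedback inhibitor, stood at 191 CPM (177–206) in members with more WFDC1 and 35.8 CPM (31.5–40.5) in members with more SPON2, the largest ratio among the ranked genes in that direction. GLI1, the transcription factor that amplifies the response, stood at 44.4 CPM (37.8–51.9) against 14.5 CPM (11.8–17.6), and HHIP, a decoy that binds the ligands, at 29.6 CPM (24.3–35.8) against 8.20 CPM (6.21–10.6). These 3 were the genes that passed among the 6 of the Hedgehog list that could be tested, and 0 passed with SPON2, with a median log2 ratio of 0.73 beside 0.03 over all genes. The signal transducer SMO was at 89.1 against 68.9 CPM, and the coreceptors BOC and CDON were at 31.6 against 47.4 CPM and at 26.0 against 35.7 CPM. The ligand genes were low in both, with DHH at 6.99 and 4.89 CPM and SHH at 0 in each.

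PTCH1 took the same side in the other 4 sets, though not by the same size. It stood at 146 CPM (113–186) against 34.7 CPM (23.7–49.0) in POSTN stromal cells ending in 2, and at 185 CPM (133–250.3) against 40.9 CPM (25.3–62.6) in the other collagen-rich cells of that ending. In members ending in 1 it stood at 115 CPM (64.6–190.5) against 51.5 CPM (34.5–74.0), from 15 and 29 UMIs and with overlapping intervals. In POSTN stromal cells ending in 1 it was at 80.8 CPM (59.2–108) against 67.9 CPM (59.3–77.3), with overlapping intervals. GLI1, too, was higher with WFDC1 in the 4 other sets, but its intervals overlapped in each. In members ending in 1 it rested on 6 and 17 UMIs. HHIP had 0 UMIs and 2 UMIs in the parts of members ending in 1, too few for a direction.

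Other genes that went with WFDC1 were AQP3 (156 against 28.6 CPM), the tight junction protein claudin 1 (CLDN1, 88.6 against 14.1 CPM), TPD52L1 (206 against 45.3 CPM) and STC1, a secreted glycoprotein hormone (200 against 46.6 CPM). AQP3 held this side in all 4 other sets, with 169 against 49.7 CPM in members ending in 1. Its intervals overlapped in POSTN stromal cells ending in 1, at 68.5 CPM (48.7–93.7) against 44.6 CPM (37.7–52.4). They also overlapped in the other collagen-rich cells, at 66.1 CPM (37.0–109) against 27.3 CPM (14.9–45.8). Of 13 cell cycle genes 4 were at least 2-fold higher with WFDC1, among them TOP2A (171 against 73.0 CPM) and MKI67 (83.8 against 30.6 CPM). Of the 15 genes with the largest ratios, 14 lay on the same side in each of POSTN stromal cells ending in 2, those ending in 1 and the other collagen-rich cells, and 12 in members ending in 1. The share of all tested genes on the same side was not computed, so these counts have no background beside them.

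The genes that went with SPON2 were led by SEMA3D and EDN3. SEMA3D, a secreted semaphorin that guides cell migration, stood at 135 CPM (127–144) against 16.5 CPM (12.6–21.3), and EDN3 at 101 CPM (93.3–108) against 11.2 CPM (7.99–15.2). RARRES1, a retinoid-induced membrane protein, stood at 51.8 against 2.52 CPM, and TGFBI, a TGF beta-induced matrix protein, at 143 against 33.0 CPM. The actin-binding protein transgelin (TAGLN) stood at 416 against 123 CPM, while the smooth muscle myosin MYH11 ran the other way, at 26.9 against 72.9 CPM. IGFBP5, the most abundant of these, stood at 4041 against 1658 CPM. LFNG was in this group too, at 98.1 against 34.1 CPM.

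This side was less alike across the other sets. SEMA3D stood at 46.7 CPM (33.8–62.8) with more SPON2 and 50.9 CPM (32.2–76.3) with more WFDC1 in POSTN stromal cells ending in 2, but at 72.1 CPM (50.8–99.4) and 4.41 CPM (0.112–24.6) in the other collagen-rich cells of that ending. TGFBI stood at 188 CPM (154–228) and 231 CPM (156–330) in members ending in 1, with overlapping intervals. TAGLN was higher with WFDC1 in 3 of the 4 other sets, with 801 against 693 CPM in members ending in 1, 427 against 419.9 CPM in POSTN stromal cells ending in 2 and 785 against 442 CPM in those ending in 1. Of the 15 genes with the largest ratios, 9 lay on the same side in members ending in 1, 13 and 10 in POSTN stromal cells ending in 2 and in 1, and 15 in the other collagen-rich cells. For these counts, too, no share over all tested genes was computed. IGFBP5 was on the same side in all 4.

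**Figure D5:**
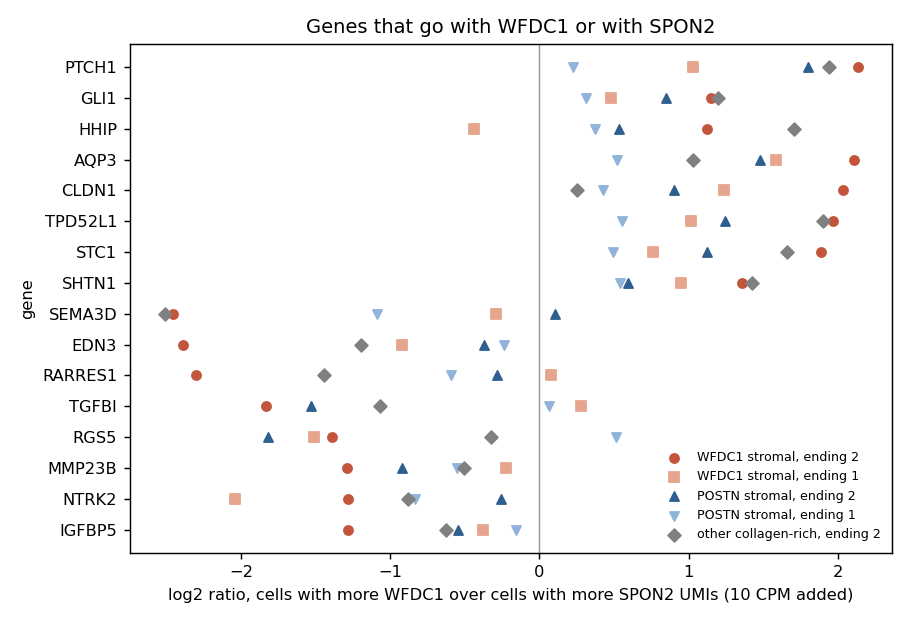
Log2 ratio of CPM (10 CPM added, x axis) in cells with more WFDC1 over cells with more SPON2 UMIs, for 16 genes (y axis) in 5 sets of collagen-rich cells, each set a symbol. PTCH1, GLI1 and AQP3 lie right of 0 in all 5 sets, but the counting intervals of GLI1 overlap in every set except members ending in 2. SEMA3D lies at −2.46 in members ending in 2 and slightly right of 0 in POSTN stromal cells ending in 2. HHIP lies left of 0 in members ending in 1, where it rests on 2 UMIs.

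With 10 CPM added to both levels, progenitor genes differed by less than 2-fold between these members. DLK1 stood at 575 CPM in members with more WFDC1 and 548 CPM in those with more SPON2, NR2F2 at 890 and 704 CPM, NR5A1 at 34.9 and 32.9 CPM and PDGFRA at 54.8 and 61.5 CPM. TCF21 was at 480 and 669 CPM, and WT1 at 41.6 and 84.3 CPM, with log2 ratios of −0.47 and −0.87. INSL3 stood at 23.8 and 7.62 CPM, with a UMI in 7.18% and 1.498% of these cells, and HSD3B2, a steroid dehydrogenase, at 12.9 and 5.90 CPM (6.90% and 2.76% of cells). CYP17A1 stood at 5.31 and 16.4 CPM but had a UMI in 2.59% and 1.15% of cells, so that its level and its share of cells ran in opposite directions and no order is read from them. Interferon-response genes were counted on neither side (0 of 22 each), with summed levels of 10423 and 11055 CPM.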

How the data were processed

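Single-cell RNA was measured in ovaries of 1 fetus at E84 and 1 at E116. The deposited values are UMI counts, not normalized, for every gene in every cell. Cell Ranger 3.0.2 and Seurat are the tools in the submitters' processing notes, and the authors aligned to a Macaca fascicularis genome. It has no cell annotation, and cells over 3000 genes and possible doublets are still in it. Columns carry no stage, so cells were taken as 1 pooled sample. Members, gene lists and comparisons were chosen with earlier results of these data known.

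UMIs were summed per group and scaled to CPM, with exact 95% Poisson or binomial intervals. The calls and the Poisson intervals were tried on counts simulated as Poisson draws. That simulation held no variation between cells, so it cannot show how the intervals cover such variation. Marker cells of other classes had at least 4 UMIs from at least 2 genes of their own list, and more of it than of any other. They lay below the collagen limit, except pericyte and smooth muscle marker cells. Those were taken on both sides of the limit, with members and POSTN stromal cells left out. Genes named are those defining the theca or Leydig class and the 2 to 4 highest or most different of each list. The 20 genes with the largest and the 20 with the smallest ratios were named too. These ranked genes needed at least 50 CPM, a UMI in 10% of cells and ratios on the same side in both endings. Genes counted as different within endings and those of the division by WFDC1 and SPON2 were added after the data were seen. Neighbours used log-normalized counts, 2000 variable genes without the 13 rule genes, 18 principal components and 20 neighbours. Subclusters were made by the Leiden method at resolution 0.5. Thinning drew 2000 UMIs per cell. The tools were scanpy 1.11.5, scikit-learn 1.9.0, scipy 1.17.1, numpy 2.4.6, pandas 2.3.3 and matplotlib 3.10.9 in Python 3.11.15.

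Alternatives were other limits of the rule, added CPM, level limits, depth and doublet filters, and each barcode ending alone. Sequences were not used here.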

Additional observations from a re-analysis of the deposited data

How the results depend on the processing

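No paired analysis was possible because the table does not tie cells to samples and each stage has 1 library. The 1608 cells fell to 982 when the WFDC1 set had to outnumber the POSTN set by 3 times, and 145 were left with the ending 1 alone. The 74 higher genes became 122 under the 3 times limit, 9 in the ending 1, 20 in the ending 2, 22 with 50 CPM added and 27 at 100 CPM or more. The 94 lower genes became 172, 24 (ending 1), 165 (1 CPM added), 25 (50 CPM added) and 37 (100 CPM or more). The 19 interferon-response genes became 0 in the ending 1 and 2 in the ending 2. The 70.4% of neighbours became 10.4% in the ending 1, 77.4% in the ending 2 and 64.9% among cells with 3000 or fewer genes. The cause of these changes was not tested. In 870 values of 55 results for single genes, 545 stayed within the counting interval, 325 left it and 0 of the ratios past 2-fold reversed. The ranked genes were chosen with ratios on the same side in both endings, so 0 reversals with an ending alone was fixed in advance. Ratios to POSTN stromal cells under 2-fold could not count as reversed. PTCH1, for example, had a log2 ratio of 0.27 over all cells and −0.17 in the ending 1. For the division by WFDC1 and SPON2 in members ending in 2, filters on depth, doublet score and subclusters were added after seeing the data, and the log2 ratio of PTCH1, 2.13, ranged from 1.97 to 2.14. With 1 fetus per stage, no value here measures the spread between animals, and genes under about 20 CPM rest on few UMIs in the 145 members ending in 1.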
